A study of Mus musculus with 15 samples.

Results

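The mitochondrial carriers of the SLC25 family were followed through the circadian day in mouse liver by ribosome profiling, which sequences the mRNA fragments that ribosomes protect from nuclease. Members were the genes whose symbol reads Slc25a followed by a number, and each was represented by its RefSeq transcript with the most reads. The files held 47 such genes with 67 transcripts among 28167 transcripts in all. Of these genes, 38 averaged 10 counts or more over the libraries and were tested, while 9 did not reach that minimum.

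Most SLC25 proteins sit in the inner mitochondrial membrane, though Slc25a17 is peroxisomal and Slc25a46 lies in the outer mitochondrial membrane. A carrier is built from repeats of a similar unit and moves a small molecule such as ADP, ATP, phosphate, citrate, aspartate, ornithine or acylcarnitine. In hepatocytes they link cytosolic and mitochondrial steps of the urea cycle, gluconeogenesis, fatty acid oxidation and lipid synthesis. The repeats typically carry a signature in which a proline is followed by an acidic and then a basic residue, and these charged residues form the salt bridges that close one side of the carrier.

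The livers came from C57BL/6N wild-type males aged 8 to 10 weeks, kept in light and dark phases for 2 weeks and then released into constant darkness. Animals were taken at 7 circadian times, every 4 h from CT0 to CT24, with 2 mice per time, so that every group shared strain, sex, genotype and housing and differed only in time. Whole liver was used, so that cells of all liver types contributed. Fewer cells of a type and less RNA per cell cannot be told apart in such samples, nor can more mRNA and more ribosomes per mRNA from these files alone.

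Counts per library ranged from 40593197 to 90458783 with a median of 56446208, and SLC25 members took 0.0596% to 0.141% of them. The 18 transcripts with Mup symbols, encoding major urinary proteins, took 34.2% to 57.6%, so levels are given as CPM, counts over the TMM-scaled library size, a scaling that sets libraries against each other by the bulk of their transcripts. Hepatocyte markers summed to 32222 CPM or more in every library. The acinar pancreas markers (Cpa1, Cela2a, Pnlip and Prss2) summed to 2014 CPM in CT20 replicate 2 and to at most 40.4 CPM in the other libraries. Every count of CT16 replicate 2 was an even number (100%), and a further sequencing run of that library is listed without a file. The last pair is named CT24 although its time field reads CT00, and the name was used.

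The signature is shown for the carriers whose footprints passed the rhythm test described below and for the close relatives of those carriers, because it is the part of the coding sequence that the family shares. Sequences were read from the GRCm38.p6 genome with RefSeq annotation, on the coding strand, and capitals mark the proline, the acidic and the basic codon of the match nearest the start codon.
Slc25a47, chr12:108853375-108853392, plus strand: CCTctgGATacagtgAAG
Slc25a12, chr2:71296783-71296800, minus strand: CCCataGACctggtgAAG
Slc25a13, chr6:6109299-6109316, minus strand: CCTatcGATcttgtaAAG
Slc25a44, chr3:88416000-88416017, minus strand: CCCatgGATgtcatcAGA
Slc25a3, chr10:91121934-91121951, minus strand: CCCctgGACttagtaAAG
Slc25a5, chrX:36795812-36795829, plus strand: CCCatcGAGagggtcAAG
Slc25a4, chr8:46210824-46210841, minus strand: CCGatcGAGagggtcAAA
All 7 lie in a coding exon of the named gene. The pattern searched was proline, any residue, aspartate or glutamate, any 2 residues, then lysine or arginine. Of the 38 tested members, 24 held it 3 times and 2, Slc25a46 and Slc25a51, not at all. Slc25a44 held it at a single place, the site printed above.

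Levels of the members spanned 383-fold. Ribosome density was computed as coding-sequence CPM per kb of coding sequence, so that genes of different length can be compared. Slc25a3, which imports the phosphate used for ATP synthesis, was the densest at 109 ± 20.2 (SD, n = 14) and lay above the next member in 14 of 14 libraries. Slc25a5, an ADP/ATP exchanger, followed at 87.2 ± 13.2, and Slc25a15, which brings ornithine into the matrix for the urea cycle, at 82.9 ± 10.7. Slc25a47, a carrier made chiefly in liver, stood at 73.3 ± 29.0 and Slc25a10, the dicarboxylate carrier, at 63.5 ± 7.96. These 5 held 52.0% of the summed density of the 38.

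Order within the upper ranks was not sharp. Slc25a5 lay above Slc25a15 in 8 of 14 libraries, and Slc25a15 above Slc25a47 in 8 of 14. Slc25a1, the citrate carrier that supplies carbon for fatty acid synthesis, was next at 47.8 ± 4.32. The glutathione carrier Slc25a39 (43.6 ± 8.10), the carnitine-acylcarnitine carrier Slc25a20 (40.3 ± 4.68), the glutamate carrier Slc25a22 (40.2 ± 6.80) and the aspartate-glutamate carrier Slc25a13 (39.5 ± 5.25) differed by less than their SD. Among the 37 neighbouring ranks, the upper member was higher in at most 9 of 14 libraries in 23.

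Against the 11747 genes that averaged 10 counts or more, 10 members lay above the 90th percentile of density and 9 below the 50th. The lowest tested member was Slc25a24, a calcium-dependent ATP-Mg/phosphate carrier, at 0.284 ± 0.101. Slc25a29, a carrier of basic amino acids whose gene neighbours Slc25a47 on chromosome 12, had a density of 0.541 ± 0.329. Slc25a2, Slc25a18, Slc25a41 and Slc25a54 had no read in any library, and 0 of 855617968 summed counts allows up to 0.00351 CPM by counting error. The other 4 untested members beside Slc25a36 had few coding reads over all libraries: 23 for Slc25a27, 12 for Slc25a31, 5 for Slc25a43 and 21 for Slc25a53, the last with 79 more in its 5′UTR.

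**Figure D1:**
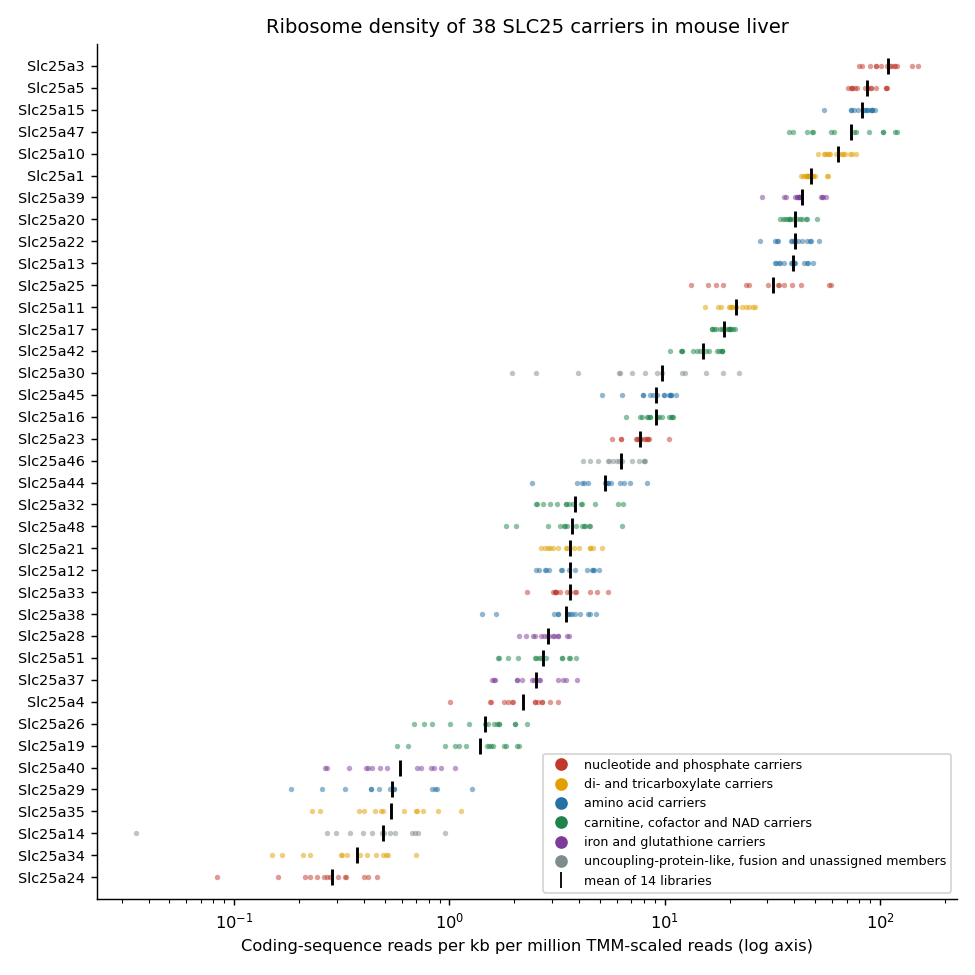
Ribosome density of the 38 tested carriers, in coding-sequence CPM (TMM-scaled) per kb on a log axis, with 1 point per library (n = 14, points at 0 not drawn) and a bar at the mean. Colours mark the function groups, and the members run from Slc25a3 at 109 down to Slc25a24 at 0.284.

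Some members share sequence with other places in the genome, which bears on how their reads could be assigned. For Slc25a5, 87.6% of the 28-nt windows of the coding sequence also occur elsewhere. The share was 41.2% for Slc25a40, 21.1% for Slc25a37, 15.98% for Slc25a51, 12.4% for Slc25a3 and 0.749% for Slc25a13, and the other 32 tested members had none. Slc25a36, a pyrimidine nucleotide carrier with 81.5% of its windows found elsewhere, had a mean of 4.14 counts and was not tested. The study's methods keep reads that align exactly and at a unique location. Under that rule reads from shared windows are left out, so the levels and densities of these genes, Slc25a5 above all, can be too low and their rank is uncertain.

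A 24-h rhythm was tested by the quasi-likelihood F test of edgeR on a cosine and a sine term over the 14 libraries, with Benjamini-Hochberg adjustment over all 17299 transcripts tested. Of the 38 carriers, 6 passed an adjusted p under 0.05 (15.8%), beside 11.3% of all transcripts and 11.2% of genes at 1 transcript each: Slc25a47, Slc25a12, Slc25a44, Slc25a3, Slc25a5 and Slc25a4. At an unadjusted p under 0.05 there were 15 (39.5%), beside 24.4% of all transcripts and 24.9% of genes. The median peak-to-trough difference was 0.40 on the log2 scale for the 38 and 0.44 for all transcripts. Between a member's highest and lowest time, the 2 pairs of mice did not overlap in 34 of the 38, most of them not called. The share over all genes was not taken. Pairs that lie apart, as described below, thus do not set the called members apart. By function group, 3 of 7 tested nucleotide and phosphate carriers were called, 2 of 8 amino acid carriers, 1 of 10 carriers of carnitine, cofactors and NAD, and 0 of 6 di- and tricarboxylate carriers, 0 of 4 iron and glutathione carriers and 0 of 3 others.

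Slc25a47 had the largest fitted swing among the called members, on chromosome 12 at 108849833 to 108856815. Its level was 56.7 and 58.6 CPM at CT0, 72.1 and 84.2 at CT4, 113 and 75.3 at CT8, 98.9 and 116 at CT12, 99.1 and 43.7 at CT16, 47.4 and 47.02 at CT20, and 37.8 and 36.2 at CT24. Both mice at CT12 lay above both at CT0, CT20 and CT24, while the CT16 pair split. The mean at CT12 was 2.90 times that at CT24. CT0 and CT24 are the same phase in the fit. Yet the mean was 57.7 CPM at CT0 and 37.0 at CT24, and the 2 pairs did not overlap. The cosine fit placed the peak at 9.94 h (SE 0.853) with a peak-to-trough difference of 1.28 (SE 0.272, log2), and edgeR gave an adjusted p of 0.00220. Leaving out any library kept the adjusted p between 0.000711 and 0.00942.

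Slc25a12 carries aspartate out of and glutamate into mitochondria, as its relative Slc25a13 does, for the malate-aspartate shuttle. Its level in the 2 mice was 5.74 and 5.68 CPM at CT0, 5.36 and 6.75 at CT4, 6.84 and 7.86 at CT8, 9.53 and 10.1 at CT12, 9.43 and 9.60 at CT16, 5.98 and 8.98 at CT20, and 7.40 and 5.18 at CT24. The 4 libraries of CT12 and CT16 were the highest of the course. The fit peaked at 14 h (SE 0.736) and spanned 0.79 (SE 0.143, log2) from trough to peak, and the edgeR adjusted p was 0.00478.

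Slc25a44 takes up branched-chain amino acids. Its level was 9.45 and 8.72 CPM at CT0, 7.22 and 5.82 at CT4, 5.98 and 6.04 at CT8, 4.34 and 7.88 at CT12, 10.1 and 7.97 at CT16, 12.8 and 8.12 at CT20, and 9.58 and 8.68 at CT24. Both CT8 mice lay below all mice at CT0, CT16, CT20 and CT24. The fit peaked at 20.3 h (SE 0.864) and spanned 0.88 (SE 0.207, log2), and its edgeR adjusted p was 0.0123. All 4 of its transcripts passed, with adjusted p from 0.0123 to 0.0205, though they share reads. With coding reads alone the adjusted p was 0.0505.

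Slc25a3 and Slc25a5 both serve ATP production, the first by bringing in phosphate and the second by exchanging ADP for ATP. Slc25a3 was at 124 and 119.8 CPM at CT0, 107 and 88.8 at CT4, 100.5 and 91.2 at CT8, 129 and 125 at CT12, 166 and 153 at CT16, 106 and 132 at CT20, and 111 and 129 at CT24. Slc25a5 was at 87.7 and 80.3 CPM at CT0, 78.2 and 70.9 at CT4, 77.7 and 73.2 at CT8, 84.1 and 86.8 at CT12, 113 and 102 at CT16, 88.2 and 93.6 at CT20, and 76.9 and 99.7 at CT24. For both genes the CT16 pair was the highest of the course and the CT4 and CT8 means were the lowest. At CT16 the summed stellate cell markers (103 and 91.3 CPM) and liver endothelium markers (54.3 and 41.1) were lower than in any other library, where they reached at least 107 and 54.9, and the Kupffer cell mean was also at its lowest. Their part in the results at CT16 was not tested.

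Slc25a3 peaked at 17.2 h (SE 0.789) with a peak-to-trough difference of 0.61 (SE 0.139, log2, edgeR adjusted p = 0.0190). Slc25a5 peaked at 17.5 h (SE 0.715) with a difference of 0.47 (SE 0.0984, log2, edgeR adjusted p = 0.0412). Leaving out CT4 replicate 2, CT8 replicate 2 or either CT16 library took Slc25a3 over the threshold, up to 0.0708. Slc25a5 stayed called only without CT0 replicate 1, CT20 replicate 1 or CT24 replicate 2, and reached 0.125 otherwise.

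Slc25a4, the ADP/ATP exchanger best known from heart and skeletal muscle, was low in liver and had its fitted peak early in the course. Its level was 3.10 and 2.64 CPM at CT0, 2.53 and 2.37 at CT4, 1.69 and 2.28 at CT8, 1.84 and 0.905 at CT12, 1.52 and 1.43 at CT16, 2.41 and 1.64 at CT20, and 1.86 and 2.73 at CT24. Both mice at CT12 and CT16 lay below both at CT0 and CT4. The peak was at 1.70 h (SE 1.00) with a peak-to-trough difference of 0.94 (SE 0.236, log2, edgeR adjusted p = 0.0458), and the call held only without CT12 replicate 1, CT20 replicate 1 or CT24 replicate 1, with adjusted p up to 0.124 otherwise. Skeletal muscle markers (Acta1, Myh4 and Ckm) summed to between 0 and 0.199 CPM in the 14 libraries. The Kupffer cell, endothelium and stellate cell markers had, like Slc25a4, their highest mean at CT0, and their lowest at CT16, with endothelium at 76.9 and 63.4 CPM against 54.3 and 41.1 and stellate cells at 136 and 129.9 against 103 and 91.3. Their part in the course of Slc25a4 was not tested.

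**Figure D2:**
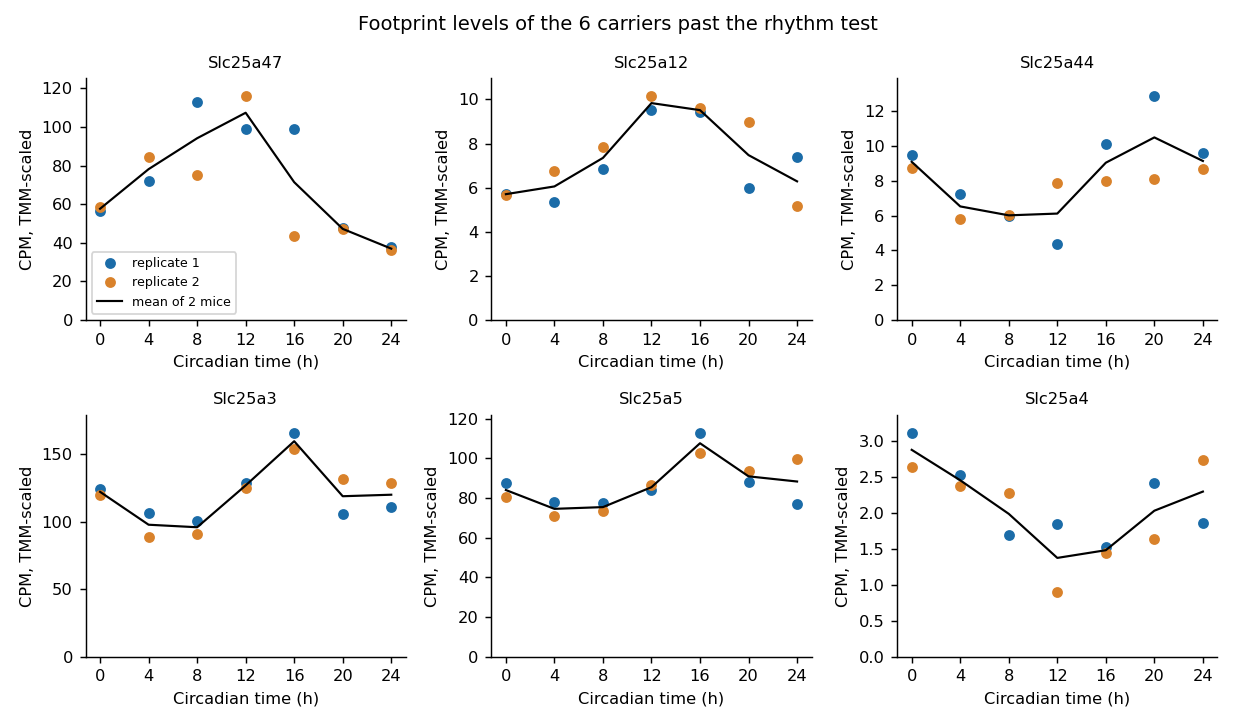
Levels of the 6 carriers past the rhythm test, in TMM-scaled CPM against circadian time in hours, with 1 point per mouse (2 per time) and a line through the means. Slc25a47 and Slc25a12 are highest at CT12, Slc25a3 and Slc25a5 at CT16, Slc25a44 at CT20 and Slc25a4 at CT0.

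The scaling matters for these calls. The TMM factors ran from 0.736 to 1.46, and scaling by the total count in place of TMM lowered every transcript at CT12 relative to CT0 by 0.74 on the log2 scale. Under the total count, Slc25a44 (edgeR adjusted p = 0.00990) and Slc25a4 (0.0288) passed and Slc25a38, a glycine carrier, was added (0.0465), whereas Slc25a47 (0.220), Slc25a12 (0.185), Slc25a3 (0.117) and Slc25a5 (0.136) did not pass. Their fitted peaks moved to 10.1 h, 16.6 h, 19.3 h and 19.8 h, and their peak-to-trough differences to 0.77, 0.69, 0.91 and 0.80 (log2), which is smaller for Slc25a47 and Slc25a12 and larger for Slc25a3 and Slc25a5. JTK_CYCLE, a rank test that adjusts for the lags tried within a transcript but not across transcripts, called 9 of 38 on TMM-scaled CPM beside 16.7% of transcripts, and 5 of 38 on CPM by total count beside 17.6%. DESeq2's likelihood ratio test called 9 beside 15.97%.

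Without CT20 replicate 2, the library with acinar markers, 4 carriers passed, beside 10.7% of all transcripts in that fit: Slc25a47, Slc25a12, Slc25a44 and Slc25a3. Slc25a5 and Slc25a4 then had edgeR adjusted p of 0.0535 and 0.0537, with peak-to-trough differences of 0.49 and 0.93 beside 0.47 and 0.94 with all libraries. Without CT20 replicate 1 there were 8, beside 11.9% of all transcripts, the 6 above with Slc25a13 (0.0448) and Slc25a25 (0.0126).

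Times of the highest level were unevenly filled. On TMM-scaled CPM, 14 of the 38 carriers (36.8%) had their highest mean at CT16, beside 14.5% of genes, and none had it at CT8, beside 12.6% of genes. The lowest mean fell at CT8 for 10 carriers (26.3%), beside 12.2% of genes. On CPM by total count, 22 carriers (57.9%) were highest at CT0, beside 61.8% of genes, and 10 (26.3%) at CT16, beside 17.97%. These are counts without a test, each mean rests on 2 mice, and CT16 is the time at which the stellate, endothelial and Kupffer cell markers were lowest.

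**Figure D3:**
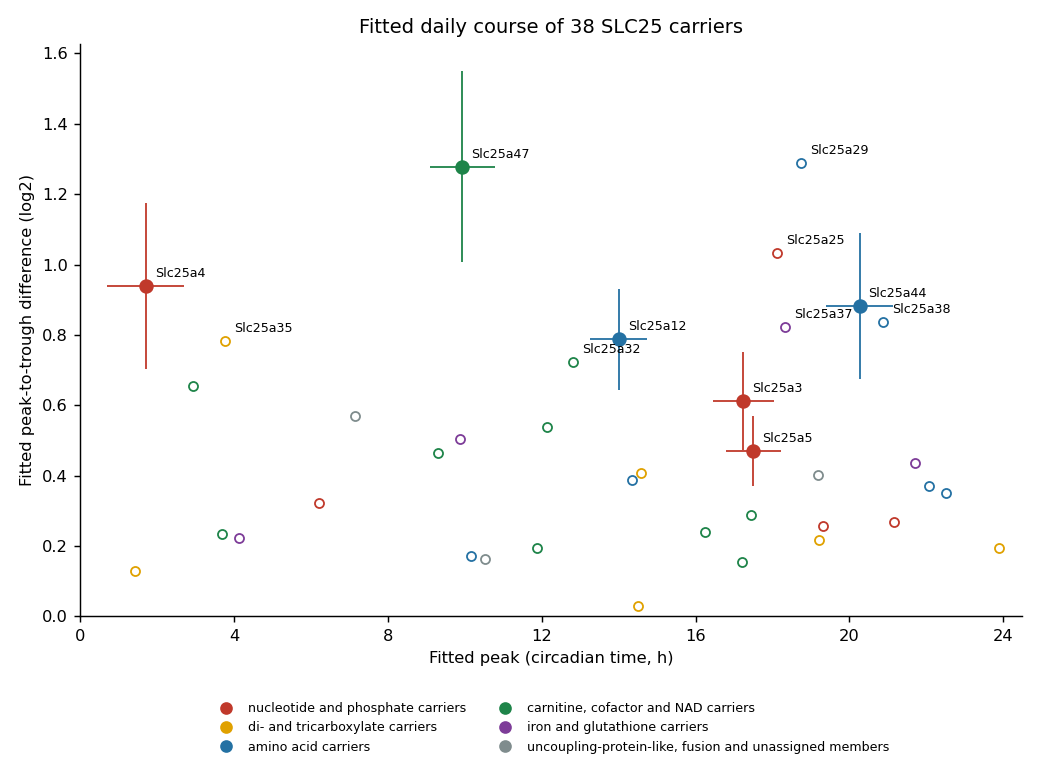
Fitted peak-to-trough difference (log2) against fitted peak time (circadian hours) for the 38 carriers, coloured by function group. Filled points are the 6 called carriers, with bars of 1 SE, and open points did not pass, among them Slc25a29 and Slc25a25 with differences over 1.

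Carriers of the urea cycle and of fatty acid oxidation did not pass. Slc25a15, the ornithine carrier, was at 89.7 and 94.2 CPM at CT0, 92.1 and 81.4 at CT4, 73.0 and 77.8 at CT8, 76.9 and 58.6 at CT12, 94.1 and 83.5 at CT16, 86.1 and 85.7 at CT20, and 87.5 and 93.2 at CT24. Its CT8 and CT12 libraries were the 4 lowest, and the edgeR adjusted p was 0.136 with a peak-to-trough difference of 0.35 (SE 0.0999, log2). JTK_CYCLE gave 0.0201 on TMM-scaled CPM and 0.0471 on CPM by total count.

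Slc25a13, which feeds aspartate to the urea cycle, was at 67.4 and 74.3 CPM at CT0, 68.1 and 80.0 at CT4, 83.1 and 80.6 at CT8, 83.3 and 95.5 at CT12, 94.0 and 101 at CT16, 70.8 and 91.8 at CT20, and 71.1 and 83.1 at CT24. The CT16 pair lay above both mice at CT0, CT4, CT8, CT20 and CT24, with an edgeR adjusted p of 0.0808. DESeq2 gave an adjusted p of 0.0253 for Slc25a13, and JTK_CYCLE gave 0.0128 on TMM-scaled CPM and 0.525 on CPM by total count. Slc25a20, which moves acylcarnitines in and carnitine out, was at 34.0 and 37.9 CPM at CT0, 36.2 and 33.9 at CT4, 36.4 and 36.7 at CT8, 32.3 and 43.2 at CT12, 48.1 and 38.6 at CT16, 40.4 and 43.0 at CT20, and 38.5 and 41.0 at CT24. Both mice at CT16, CT20 and CT24 lay above both at CT0, CT4 and CT8, the CT12 pair spanned most of that range, and the edgeR adjusted p was 0.330.

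Slc25a25, a calcium-dependent ATP-Mg/phosphate carrier, varied strongly between mice of the same time. It was at 52.7 and 46.2 CPM at CT0, 52.6 and 27.5 at CT4, 24.2 and 29.3 at CT8, 65.4 and 37.97 at CT12, 51.2 and 88.2 at CT16, 20.1 and 88.4 at CT20, and 35.9 and 60.2 at CT24. The 2 mice at CT20 differed 4.39-fold and held both the lowest and the highest level of the course, and the edgeR adjusted p was 0.212. The higher of these is the library with 2014 CPM of acinar markers, and without it the adjusted p was 0.424. Slc25a30, a relative of the uncoupling proteins, differed more, with 2.14 and 15.4 CPM at CT0, a 7.17-fold gap. For the 30 members that averaged 100 counts or more, the median of the widest gap between 2 mice of a time was 1.53-fold.

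Other abundant members did not pass the edgeR test either. Slc25a1 ranged in its time means from 42.5 ± 2.83 CPM (SD, n = 2) at CT12 to 50.4 ± 5.44 at CT0. JTK_CYCLE on CPM by total count gave 0.0312 for Slc25a1 and 0.0126 for Slc25a39, and 0.457 and 0.300 on TMM-scaled CPM. Slc25a10 lay between 52.0 ± 4.68 at CT12 and 64.8 ± 5.99 at CT16, and Slc25a22 between 33.2 ± 4.36 at CT20 and 49.3 ± 1.56 at CT16. Slc25a39 ranged from 43.0 ± 0.523 at CT8 to 66.3 ± 0.639 at CT0, with an edgeR adjusted p of 0.181. Slc25a11, the oxoglutarate-malate carrier of the malate-aspartate shuttle, ranged from 19.5 ± 3.50 at CT4 to 26.7 ± 0.369 at CT16, with an edgeR adjusted p of 0.0915.

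The proteins around the carriers were read from the same fit. Enzymes that feed or use carrier substrates gave 5 calls of 15 tested, beside 11.3% of all transcripts. Cpt1a, which makes the acylcarnitines that Slc25a20 imports, peaked at 11.6 h with a peak-to-trough difference of 1.23, and Pck1, the gluconeogenic enzyme supplied by exported carbon, at 11.5 h with 1.92 (log2). Acly, which splits the citrate that Slc25a1 exports, peaked at 21.0 h with 1.85, Crat at 21.2 h with 1.39 and Glud1 at 18.96 h with 0.62. Of 13 other inner membrane transporters, Mcu and Slc8b1 passed, with adjusted p of 0.00330 and 0.00160. None of 13 proteins that import carriers into the membrane and none of 3 family proteins with other symbols passed in edgeR, with 1 and 2 at an unadjusted p under 0.05, beside 24.4% of all transcripts.

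Related carriers were compared within each library, which no scaling can change. Of 12 pairs of relatives, 9 had both members past the count minimum. The coding density differed in 8 of the 9 pairs by an exact two-sided permutation test over sign flips of the 14 log2 ratios, each with p = 0.000122, the smallest this test can give, and 0.000137 after Benjamini-Hochberg adjustment over the 9. Slc25a5 exceeded Slc25a4 40.8-fold (log2 ratio 5.35 ± 0.56, SD, n = 14) and Slc25a13 exceeded Slc25a12 11.05-fold (3.47 ± 0.23), in 14 of 14 libraries each. Since 87.6% of the Slc25a5 windows and none of the Slc25a4 windows occur elsewhere, the first fold can be too low under unique alignment. Any pair whose log2 ratio keeps its sign in all 14 libraries reaches the smallest p of this test. Densities of other gene pairs were not compared, so the count of 8 of 9 has no background share beside it.

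Slc25a39 stood 78.8-fold above its relative Slc25a40 (log2 ratio 6.30 ± 0.69, which can be too high as 41.2% of the Slc25a40 windows occur elsewhere), Slc25a23 28.2-fold above Slc25a24 (4.82 ± 0.70) and Slc25a30 18.5-fold above Slc25a14 (4.21 ± 1.46). Gaps were smaller between Slc25a25 and Slc25a23 (3.79-fold), Slc25a10 and Slc25a11 (2.98-fold), and Slc25a42, the coenzyme A carrier, and Slc25a16 (1.65-fold), each higher in 14 of 14 libraries. With reads of the whole transcript per kb of its length, the log2 ratio of Slc25a10 to Slc25a11 was 0.25 in place of 1.58. That length takes in a 3′UTR of 2986 nt with 317 reads for Slc25a10 and of 739 nt with 29 reads for Slc25a11. The longer 3′UTR of Slc25a10, with few reads, lowers this ratio. The iron carriers Slc25a37 and Slc25a28 had a log2 ratio of -0.22 ± 0.43 and the first was higher in 5 of 14 libraries (exact permutation test, p = 0.0759), with values from -1.01 to 0.33. As 21.1% of the Slc25a37 windows and none of the Slc25a28 windows occur elsewhere, this ratio can be too low, and its direction is uncertain. With reads of the whole transcript per kb that ratio was -1.78 (exact permutation test, adjusted p = 0.000157). The length then takes in a 3′UTR of 2983 nt with 14 reads for Slc25a37 and of 325 nt with 1 read for Slc25a28. These nearly empty lengths lower the ratio, so this value does not settle the direction. No pair shared a 28-nt window of coding sequence.

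The ratio of Slc25a5 to Slc25a4 counts followed the time of day. Its log2 value was 4.82 and 4.92 at CT0, 4.95 and 4.90 at CT4, 5.52 and 5.00 at CT8, 5.51 and 6.57 at CT12, 6.20 and 6.15 at CT16, 5.18 and 5.83 at CT20, and 5.37 and 5.19 at CT24. Both libraries at CT16 lay above all libraries of CT0, CT4, CT8, CT20 and CT24. A cosine took up 0.709 of its variance and swung by 1.29 from trough to peak, which fell at 14.8 h (permutation test, 100000 shuffles of the times, p = 0.00158, adjusted over 9 pairs 0.0142). The adjusted p stayed between 0.00702 and 0.0348 with any 1 library left out. The Kupffer cell, endothelium and stellate cell markers had their highest mean at CT0 and their lowest at CT16. Their part in the course of this ratio was not tested.

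Slc25a37 against Slc25a28 was also called (swing of 1.03, highest at 17.8 h, permutation test, adjusted p = 0.0238). The mean log2 ratio was lowest at CT4 with -1.08 ± 0.10 (SD, n = 2) and highest at CT16 with 0.14 ± 0.01. Slc25a37 itself ranged from 1.63 ± 0.0271 CPM at CT4 to 3.46 ± 0.165 at CT16, and Slc25a28 from 2.86 ± 0.117 at CT20 to 3.46 ± 0.171 at CT4. The call was lost without CT4 replicate 1, CT4 replicate 2, CT16 replicate 2 or CT20 replicate 1, with adjusted p up to 0.0672. Erythroid markers, of a cell type in which Slc25a37 is known to be abundant, summed to 38.7 to 77.2 CPM over 3 of the 5 listed genes found in the files, with the highest mean at CT4 and the lowest at CT16, and their part in the result was not tested.

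Slc25a10 against Slc25a11 had a swing of 0.39 (permutation test, adjusted p = 0.0398), and that call held in 3 of the 14 fits with 1 library left out. With the replicate number as a block, the adjusted p of this permutation test was 0.0541 and the call was lost. Slc25a13 against Slc25a12 had an adjusted p of 0.0773 with a difference of 0.41. For the other 5 pairs the adjusted p ran from 0.285 to 0.967. Ratios of other gene pairs were not tested, so these calls have no background share beside them. Slc25a40 (0.616 ± 0.368 CPM at CT16 to 1.10 ± 0.336 at CT12), Slc25a24 (0.260 ± 0.199 at CT20 to 0.616 ± 0.0607 at CT0) and Slc25a14 (0.215 ± 0.260 at CT4 to 0.718 ± 0.179 at CT24) were too sparse for a narrow estimate of any course. Slc25a23 ranged from 9.65 ± 0.917 CPM at CT8 to 13.8 ± 0.430 at CT0, Slc25a42 from 13.0 ± 1.75 at CT24 to 17.01 ± 1.82 at CT0, and Slc25a16 from 8.05 ± 1.62 at CT20 to 11.9 ± 2.06 at CT12.

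**Figure D4:**
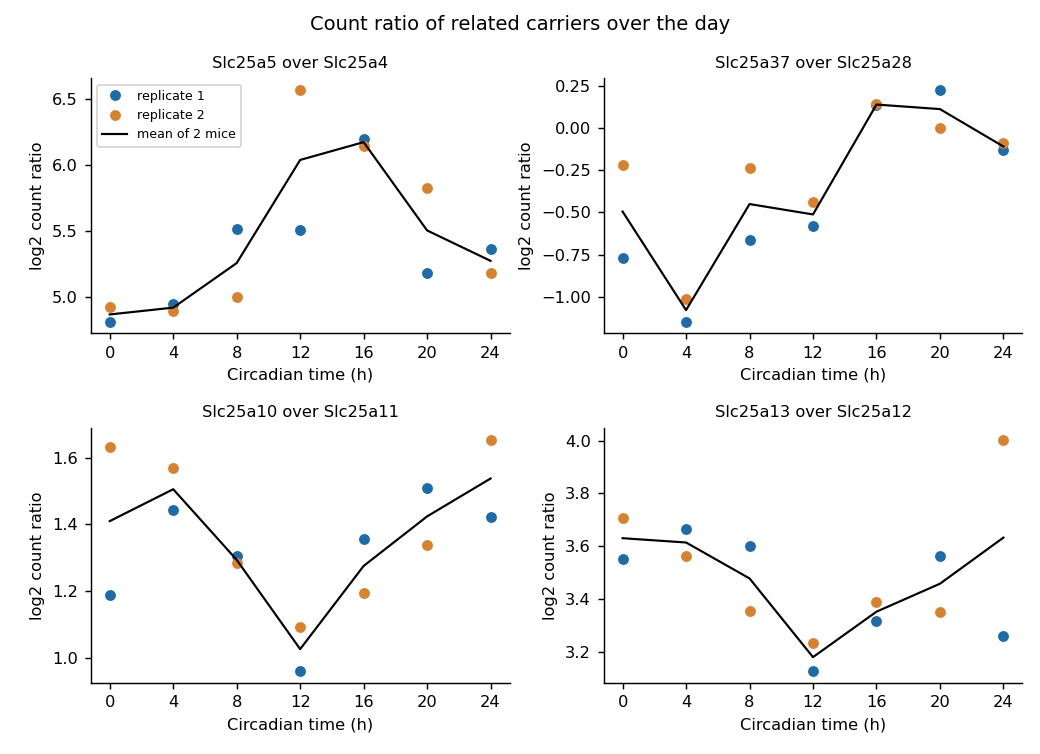
Log2 ratio of whole-transcript counts of 4 pairs of related carriers against circadian time in hours, with 1 point per library (2 per time) and a line through the means. Slc25a5 over Slc25a4 rises from 4.87 at CT0 to 6.18 at CT16, and Slc25a10 over Slc25a11 is lowest at CT12 with 1.03.

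Footprints also fell in the 5′UTR of some members. Slc25a44 had 2186 of 6515 5′UTR and coding reads in its 5′UTR, 33.6% (95% Wilson interval 32.4 to 34.7), and the share in single libraries ran from 26.6% to 45.3%. Slc25a51, the NAD carrier, had 25.4% (23.9 to 27.1) and Slc25a40 25.3% (22.1 to 28.7). With 15.98% and 41.2% of their coding windows found elsewhere, unique alignment leaves out coding reads of both genes, so these shares can be too high. Matches of 5′UTR windows elsewhere were not counted. The median over the 38 was 7.02%, beside 3.70% over 11728 genes. Intervals cover counting error only, since PCR copies are not independent molecules.

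The 5′UTR of Slc25a44 holds 4 upstream open reading frames, here an ATG with an in-frame stop before the main start codon. Their starts are printed because they lie in the 5′UTR with the highest share of reads among the 38 tested members, with capitals on the ATG, on the minus strand of GRCm38.p6.
Slc25a44 frame 1, chr3:88425086-88425106: ccagtggagATGgaggaagat
Slc25a44 frame 2, chr3:88425076-88425096: tggaggaagATGcgaaccgag
Slc25a44 frame 3, chr3:88424868-88424888: tgcatcgccATGggaagccgc
Slc25a44 frame 4, chr3:88424797-88424817: ccgaggagcATGagagactga
The files give region totals, so reads cannot be placed on a frame. Among the 31 members whose annotated lengths matched the files, the median 5′UTR share was 11.4% in the 14 with at least 1 such frame and 2.11% in the 17 without. The share is not set per nt of 5′UTR, and a longer 5′UTR can hold both more frames and more reads. Slc25a40 and Slc25a51, whose shares can be too high, are among the 14. The part of the frames in this contrast was not tested. Slc25a12 and Slc25a24 had no 5′UTR read, and neither had Slc25a37. The annotated 5′UTR of Slc25a37 holds 1 frame, as does that of Slc25a12, whose annotated lengths do not match the files.

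**Figure D5:**
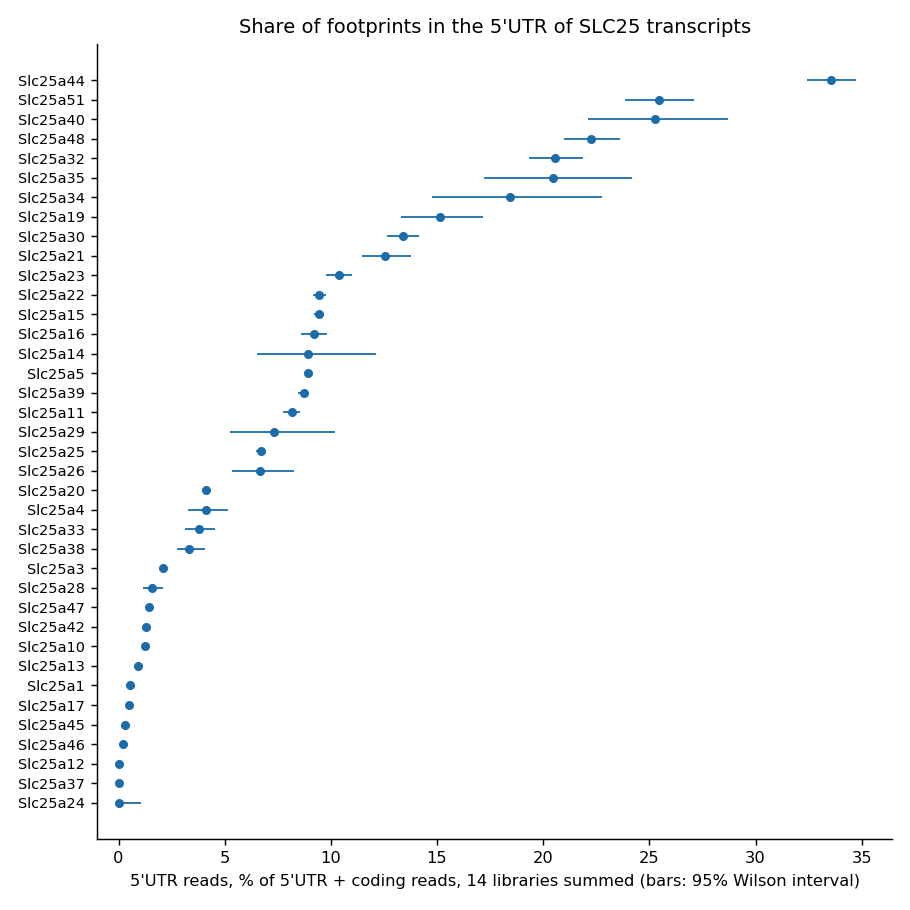
For each of the 38 tested carriers, the 5′UTR part of its 5′UTR plus coding reads, in percent, over the 14 libraries summed, with 95% Wilson intervals for counting error. Slc25a44 lies highest at 33.6%, and 6 carriers exceed 20%, among them Slc25a40 and Slc25a51, whose shares can be too high because part of their coding sequence also occurs elsewhere.

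The balance between 5′UTR and coding reads showed no daily course past the threshold. The log2 ratio was tested with limma in the 7640 transcripts that averaged 10 counts or more both in the 5′UTR and in the coding sequence, and 0 were called (0.0%). None of the 23 carriers in this test passed, and at an unadjusted p under 0.05 there were 3 (13.0%), beside 4.93% of transcripts. They were Slc25a32, the mitochondrial folate and FAD carrier, Slc25a3 and Slc25a40, each with a limma adjusted p of 0.809.

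Promoters from 250 bases before to 50 after the start were searched on both strands for clock-related motifs. A RefSeq promoter entry was found for 30 of the 38 members and 5 of the 6 called ones. The E-box CACGTG, the letters bound by the clock activators, occurred in 5 of the 30 (16.7%), beside 8.09% of 27025 genes. These were Slc25a1, Slc25a13, Slc25a14, Slc25a15 and Slc25a33, of which none passed the edgeR test, while JTK_CYCLE or DESeq2 values under 0.05 for Slc25a1, Slc25a13 and Slc25a15 stand above.
Slc25a13, chr6:6217285-6217306, minus strand: gtctgagtCACGTGtcctggcc
Slc25a15, chr8:22398341-22398362, minus strand: ctgccgcaCACGTGccgcggct
Capitals mark the E-box, shown for the urea cycle carriers. The D-box as TTATGTAA or TTACGTAA, the ROR element as AAN followed by TAGGTCA, and 2 copies of AGGTCA with 1 base between occurred in none of the 30, beside 1.11%, 0.126%, 0.259% and 0.0481% of genes.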

How the data were processed

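Footprints of 26 to 34 nt were sequenced from 14 liver libraries. Per the labels, FastQC, Bowtie2 2.1.0.0 and SAMtools 0.1.19.0 were used with mm10. The authors deposited, for each library, raw counts of reads per RefSeq transcript in the 5′UTR, coding sequence and 3′UTR; the study's methods keep exact alignments at a unique location after removal of rRNA reads. The 3 regions were summed. Of 28167 transcripts, 27840 matched a symbol, and 17299 with a mean of at least 10 counts were tested.

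The members, gene lists and tests were chosen with earlier results of these data known. Named genes were the called members, members of related pairs and the carriers of the main liver pathways; members named for mouse-to-mouse spread were chosen after their values were seen. Rhythm was tested with edgeR 4.0.16 (R 4.3.3, TMM, quasi-likelihood F test of 24-h cosine and sine terms, Benjamini-Hochberg adjustment), 5′UTR to coding log2 ratios with limma 3.58.1, and DESeq2 1.42.0 served as an alternative. JTK_CYCLE was rewritten with a null distribution that allows ties, and can differ from the published program. On simulated counts for 17299 transcripts, edgeR recovered 52 of 100 rhythms with a peak-to-trough difference of 1 (log2) and 92 of 100 with 2, with 3 other calls. Pairs of mice at a time are separate animals.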

Additional observations from a re-analysis of the deposited data

How the results depend on the processing

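The number of rhythmic carriers was 6 of 38, beside 11.3% of all transcripts. Under total-count scaling it was 3 (Slc25a4, Slc25a38 and Slc25a44) beside 8.24%, and with the phases as a factor of 6 levels (CT0 and CT24 joined) in place of the cosine it was 3 (Slc25a3, Slc25a32 and Slc25a47) beside 7.94%. DESeq2's likelihood ratio test called 9 (beside 15.97%), JTK_CYCLE 9 on TMM-scaled (16.7%) and 5 on total-count CPM (17.6%). DESeq2 size factors gave 6 (beside 11.3%), upper-quartile scaling 5 (11.1%), coding reads alone 5 (10.8%), 1 transcript per gene 5 (10.6%), a minimum of 1 count 5 (9.47%) and of 100 counts 6 of 30 (beside 16.7%), and halving CT16 replicate 2 gave 6 (11.2%). Leaving out 1 library gave 3 (without CT4 replicate 2) to 8 (without CT20 replicate 1), beside 8.67% to 11.9%. Calls of Slc25a47, Slc25a12 and Slc25a44 held in 14 of 14 such fits, that of Slc25a3 in 10, and those of Slc25a5 and Slc25a4 in 3 each. The cause of these changes was not tested.

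With the replicate number as a block, 7 carriers passed beside 11.1% of all transcripts, the added one being Slc25a13 (edgeR adjusted p = 0.0451). The numbers did not pair the samples: replicate differences correlated at -0.06 to 0.16 over 21 pairs of times, 3 above 0.1. The ratio of Slc25a10 to Slc25a11 had an adjusted p of 0.0541 with the block (permutation test).

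Of the 9 pairs, 3 had a rhythmic ratio, with 1 to 4 when a library was left out. Ratios of other gene pairs were not tested, so no background share stands beside these counts. None of the 5′UTR ratios passed under any setting. In the simulation, 52 of 100 rhythms with a peak-to-trough difference of 1 (log2) were recovered, and smaller ones were not simulated. There were 2 mice per time, and no matched mRNA was used here.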
